A study of Rattus norvegicus with 18 samples.

Results

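A set of 5 genes of macrophages, other leukocytes and the lysosome, *Gpnmb*, *Tbxas1*, *Ptprc*, *Arpc1b* and *Ctsh*, were followed through the L5 dorsal root ganglion (DRG) of the rat after nerve injury. They were picked by symbol, 5 of the 26172 Ensembl genes in the tables, in the knowledge that their counts differed between injured and uninjured ganglia in these same libraries. The difference between the groups is therefore described for them with no test. The ganglia came from male Wistar rats, either 7 days after L5 spinal nerve transection (SNT), in which the spinal nerve that serves the ganglion is cut, or from naive rats. Each library was made from the pooled ganglia of 4 animals, 3 libraries per group, and was sequenced 3 times, to nominal depths of 17M, 25M and 50M reads. The naive rats were not described as sham operated, so surgery and nerve transection cannot be told apart. The 50M runs, with 15000789 to 19031166 reads in genes, carry the values below unless another run is named.

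An injured peripheral nerve and its ganglion are known to fill with macrophages, which enter from the blood or divide in place, clear debris, and degrade what they engulf in lysosomes. *Gpnmb* encodes a transmembrane glycoprotein of lysosomes and endosomes that is abundant in phagocytic macrophages. *Tbxas1* encodes thromboxane A synthase, which turns a prostaglandin precursor into thromboxane in macrophages and platelets. *Ptprc* encodes the leukocyte common antigen, a tyrosine phosphatase on the surface of nucleated blood cells. *Arpc1b* encodes the form of one Arp2/3 complex subunit that predominates in blood cells, where the complex nucleates branched actin, and its paralog *Arpc1a* fills the same place in most other cells. *Ctsh* encodes cathepsin H, a cysteine protease of the lysosome that also trims the ends of peptides.

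The 300 bases around the annotated start of 3 of these genes are shown, because the 5 genes moved together across libraries and these windows hold the letters searched for (RefSeq, build GRCr8, 250 bases before to 50 after the start, on the gene's strand). *Gpnmb* is shown as the gene with the largest fold difference (chr4:79340878-79341177, plus strand), *Ptprc* as the general leukocyte gene (chr13:52259697-52259996, minus strand) and *Arpc1b* as the actin gene (chr12:14609439-14609738, minus strand). Capitals mark matches, on either strand, to TCACATG or TCACGTG, E-box letters of the kind bound by the MITF and TFE family, or to GAGGAA or GGAAGTG, letters of the kind bound by PU.1 and other ETS factors.
Gpnmb: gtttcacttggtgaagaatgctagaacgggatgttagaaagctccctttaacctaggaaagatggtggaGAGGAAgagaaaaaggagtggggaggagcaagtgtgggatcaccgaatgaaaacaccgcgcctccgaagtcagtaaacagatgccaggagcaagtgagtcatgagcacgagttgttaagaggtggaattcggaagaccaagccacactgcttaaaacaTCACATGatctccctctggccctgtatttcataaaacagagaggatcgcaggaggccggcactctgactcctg
Ptprc: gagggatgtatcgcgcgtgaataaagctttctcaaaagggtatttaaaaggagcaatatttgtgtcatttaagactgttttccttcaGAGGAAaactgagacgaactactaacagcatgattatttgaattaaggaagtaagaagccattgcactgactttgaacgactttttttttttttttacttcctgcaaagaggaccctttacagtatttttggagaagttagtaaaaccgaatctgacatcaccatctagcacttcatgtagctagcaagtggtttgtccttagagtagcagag
Arpc1b: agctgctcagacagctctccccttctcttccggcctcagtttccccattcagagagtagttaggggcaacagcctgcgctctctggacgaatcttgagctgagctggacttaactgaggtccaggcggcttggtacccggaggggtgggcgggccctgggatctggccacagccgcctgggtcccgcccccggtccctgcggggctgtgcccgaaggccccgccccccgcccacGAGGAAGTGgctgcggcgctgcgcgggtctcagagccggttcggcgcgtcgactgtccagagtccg
GAGGAA was found in the windows of all 5 genes and in 27.6% of the 33469 windows in the table. *Gpnmb* was the only one of the 5 with TCACATG, which began 23 bases before the start and occurs in 3.89% of windows. None of the 5 held TCACGTG, found in 3.20% of windows. In *Arpc1b* GAGGAA and GGAAGTG overlap, at 16 and 14 bases before the start, and GGAAGTG occurs in 9.86% of windows. The motifs were picked after the sequences had been seen, and a match is only a run of letters; binding was not measured here.

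*Gpnmb* had the largest fold difference of the 5. Its normalized read count was 386, 316 and 370 in naive libraries 1, 2 and 3 and 5770, 21283 and 7155 in SNT libraries 1, 2 and 3. The groups did not overlap, the lowest SNT library lying 15.0 times above the highest naive one, and SNT 2 stood far above both other SNT libraries. The means were 357 ± 36.9 in naive and 11403 ± 8584 in SNT (SD, n = 3), a ratio of 31.9, which fell to 18.1 when SNT 2 was left out. On the log2(count + 1) scale the difference was 4.75 with a standard error of 0.46, rank 37 among the 17930 genes tested. Standard errors of log2 differences, here and below, are the moderated values of limma. They borrow variance from all genes tested and do not rest on the 6 libraries of 1 gene alone.

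*Tbxas1* rested on few reads in uninjured tissue, 26 to 46 in each naive library. Its normalized counts were 29.7, 26.1 and 44.1 in the naive libraries and 197, 590 and 336 in SNT 1, 2 and 3. Every SNT library was at least 4.47 times above every naive library. The ratio of the means was 11.2, from 33.3 ± 9.51 to 374 ± 199 (SD, n = 3), and the log2 difference was 3.35 with a standard error of 0.41.

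*Ptprc*, present on leukocytes of every lineage, was counted at 273, 154 and 430 in the naive libraries and at 666, 1860 and 1056 in SNT 1, 2 and 3. The naive libraries themselves spread by 2.80-fold, the widest naive range of the 5 genes, and the lowest SNT library lay 1.55 times above the highest naive one. The means were 286 ± 139 and 1194 ± 609 (SD, n = 3), a ratio of 4.18 and a log2 difference of 2.05 with a standard error of 0.47. In bulk tissue, more cells of a type and more RNA per cell cannot be told apart, and this holds for all 5 genes.

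*Arpc1b* had normalized counts of 647, 475 and 730 in the naive libraries and of 1488, 3093 and 2258 in SNT 1, 2 and 3. The groups did not overlap, and SNT 1 was the lowest and SNT 2 the highest of the injured libraries. The ratio of the means was 3.69, from 618 ± 130 to 2280 ± 803 (SD, n = 3), with a log2 difference of 1.84 and a standard error of 0.28.

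*Ctsh* differed least. It was counted at 2208, 1891 and 2563 in the naive libraries and at 2835, 4336 and 3618 in SNT 1, 2 and 3. The groups did not overlap, but SNT 1 was only 1.11 times above naive 3. The ratio was 1.62, from 2221 ± 336 to 3596 ± 751 (SD, n = 3), and the log2 difference was 0.68 with a standard error of 0.18. A complete separation with SNT above naive, seen in all 5 genes, was found in 30.8% of the 17930 genes tested, and since the genes were chosen for this contrast nothing is read from the count.

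**Figure D1:**
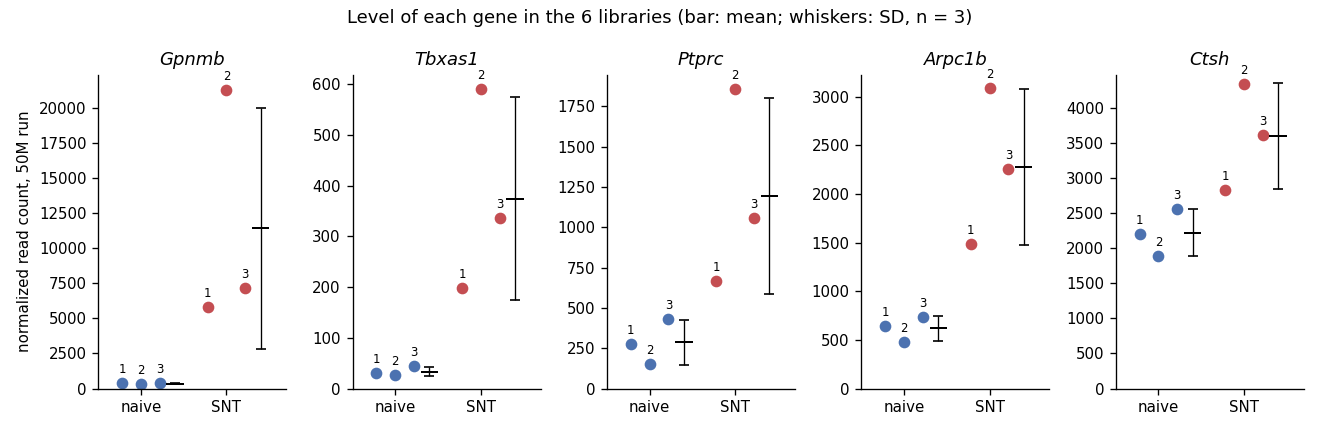
Normalized read count of each of the 5 genes in the 50M runs of the 3 naive (blue) and 3 SNT (red) libraries, each panel with its own linear axis from 0; digits are library numbers, bars the mean and whiskers the SD. SNT 2 is the highest and SNT 1 the lowest of the injured libraries in every panel, and no naive library reaches an SNT library.

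The order of the injured libraries was the same for all 5 genes, with SNT 2 above SNT 3 and SNT 3 above SNT 1, and it held in each of the runs at 17M, 25M and 50M. The size of the step differed between genes. The level in SNT 2 relative to SNT 1 was 3.69 for *Gpnmb*, 2.99 for *Tbxas1*, 2.79 for *Ptprc*, 2.08 for *Arpc1b* and 1.53 for *Ctsh*. That was the same sequence as their SNT to naive ratios, which include SNT 2 and so are not independent of it. The step from SNT 1 to SNT 3 was smaller, at 1.24 for *Gpnmb*, 1.28 for *Ctsh*, 1.52 for *Arpc1b*, 1.59 for *Ptprc* and 1.704 for *Tbxas1*. This order of SNT libraries was found in 29.1% of the 17930 genes tested and in 60.6% of the 5231 called higher in SNT, so it was not particular to these genes. Among naive libraries the order was 3, then 1, then 2 for all 5 genes in the 17M and 25M runs; in the 50M runs *Gpnmb* alone had naive 1 above naive 3. That naive order was found in 20.5% of genes tested and in 37.0% of those called higher in SNT.

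**Figure D2:**
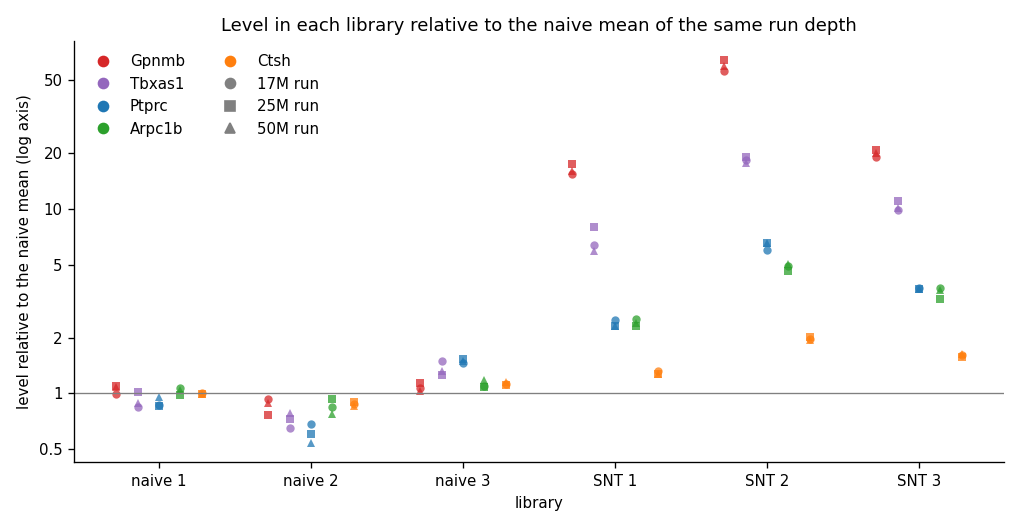
Level of each gene in each library divided by the mean of the 3 naive libraries at the same run depth, on a log axis; color marks the gene and marker shape the run depth. The runs of a library lie close together, whereas the SNT libraries differ, with *Gpnmb* at 16.2 times the naive mean in SNT 1 and 59.6 times in SNT 2 in the 50M runs.

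For all 5 genes the spread between SNT libraries exceeded that between the runs of any SNT library. Among naive libraries the same held for the other 4 genes but not for *Gpnmb*, whose runs of naive 2 varied by 16.3% against 10.8% between libraries, both in CPM, the reads scaled to each run's total. In CPM the coefficient of variation over the 3 runs of an SNT library was 0.52% to 2.37% for *Gpnmb* and 0.19% to 5.56% for *Ptprc*. Over the 3 SNT libraries, the normalized counts of the 50M runs varied by 75.3% for *Gpnmb*, 53.2% for *Tbxas1*, 51.0% for *Ptprc*, 35.2% for *Arpc1b* and 20.9% for *Ctsh*. Over naive libraries *Ptprc* varied by 48.6%, with a counting error of 4.72% to 8.08% per library in the 50M runs, against 5.06% to 5.64% for *Gpnmb*. For *Tbxas1* in naive libraries the counting error was 14.7% to 19.6% and the variation between libraries 28.6%. SNT to naive ratios in the 17M and 25M runs were 30.3 and 34.3 for *Gpnmb*, 11.6 and 12.7 for *Tbxas1*, 4.06 and 4.19 for *Ptprc*, 3.73 and 3.40 for *Arpc1b*, and 1.64 and 1.63 for *Ctsh*. These runs repeat the same libraries and add no animals.

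Ratios within a library do not depend on how libraries were scaled. For each pair the number is the reads of one gene per read of the other, without correction for gene length, so only its change between libraries has a meaning. *Tbxas1* per *Ptprc* read was 0.296, 0.317 and 0.318 in SNT 1, 2 and 3, a variation of 4.03% between libraries in which *Ptprc* itself varied by 51.0%. In the naive libraries it was 0.109, 0.170 and 0.102, so the groups did not overlap and the mean in SNT was 2.44 times that in naive. With the reads of the 3 runs of each library summed, the SNT values were 0.318, 0.324 and 0.318. In the 17M and 25M runs the same ratio varied by 10.9% and 8.68% over SNT libraries, so the narrow range at 50M was not matched at lower depth. In the SNT libraries at 50M the counting error was 4.29% to 7.05% for *Tbxas1* and 2.42% to 3.84% for *Ptprc*. The variation of 4.03% lay below the counting error of *Tbxas1* alone, so a constant ratio cannot be read from it.

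*Gpnmb* per *Ptprc* read varied more, at 8.66, 11.4 and 6.77 in SNT 1, 2 and 3, a variation of 26.2%, against 1.41, 2.05 and 0.860 in the naive libraries. The mean was 6.22 times higher in SNT and the groups did not overlap. *Arpc1b* per *Ptprc* read was 2.37, 3.09 and 1.697 in naive and 2.23, 1.66 and 2.14 in SNT libraries. Here the groups overlapped and the means were 2.39 ± 0.70 and 2.01 ± 0.31 (SD, n = 3). *Ctsh* per *Ptprc* read fell, from 8.08, 12.3 and 5.96 in naive to 4.26, 2.33 and 3.43 in SNT libraries.

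*Arpc1b* per read of its paralog *Arpc1a* was 0.275, 0.209 and 0.298 in naive and 0.626, 1.201 and 0.873 in SNT 1, 2 and 3, with a mean 3.45 times higher in SNT. The ratio was highest in SNT 2 and lowest in SNT 1 of the injured libraries, and no naive library reached an SNT library. Reads that matched more than 1 place in the genome had been discarded, so the counts of the paralogs rest on unique sequence. *Ctsh* per *Ctsc* read fell from 2.81, 3.25 and 2.98 in naive to 1.87, 1.29 and 1.59 in SNT libraries, since *Ctsc*, the lysosomal dipeptidase cathepsin C, had the larger fold difference. *Ctsh* per read of *Ctsb*, cathepsin B, went the other way, from 0.0528, 0.0440 and 0.0645 in naive to 0.0683, 0.0803 and 0.0895 in SNT libraries, with a mean 1.48 times higher and no overlap.

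**Figure D3:**
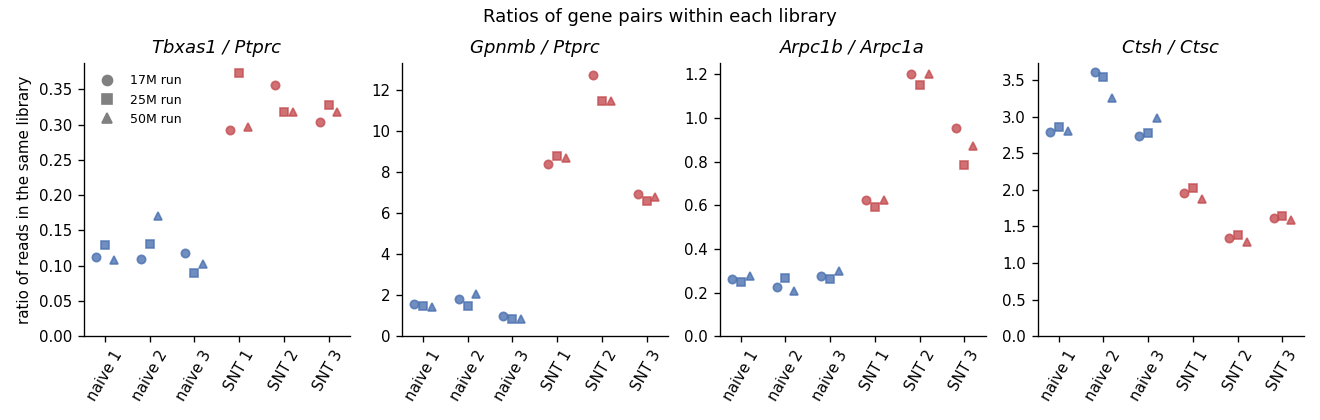
Reads of one gene divided by reads of another in the same library, for 4 pairs, with naive libraries in blue, SNT libraries in red and marker shape for run depth; axes are linear from 0. *Tbxas1* per *Ptprc* lies in a narrow band in SNT libraries at 50M, no wider than counting error, whereas *Gpnmb* per *Ptprc* and *Arpc1b* per *Arpc1a* peak in SNT 2.

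The other genes of these pathways were taken from lists of genes that have a symbol in the study's sheet, and each was tested with limma on log2(count + 1) over the 6 libraries, with a Benjamini-Hochberg adjusted p under 0.1 as the call. By that rule 58.5% of the 17930 genes tested were called, 29.2% higher and 29.4% lower in SNT, and the median log2 difference of all genes was 0.0095, so counts in a list are read against a tissue in which most genes moved. Scaling libraries to equal totals instead shifted the median of all genes by 0.15 and the share of calls higher in SNT from 49.8% to 62.5%. Of the 80 list genes other than the 5, 39 were called higher, 18 lower and 23 not called, with a median log2 difference of 0.28. Per the paper's methods the sheet required a minimum of intronic reads, which a gene could reach through the SNT libraries alone. The lists were also chosen with earlier results of these data known. The share called among genes with a symbol was not computed, so no excess is read from the counts in these lists.

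Most genes of the leukocyte and myeloid list were higher in SNT. Of 12 besides *Ptprc*, *Tbxas1* and *Gpnmb*, 9 rose, 1 fell and 2 were not called, with a median log2 difference of 0.85. Over all genes tested 29.2% were called higher and 29.4% lower. The list was chosen with earlier results known, so no excess is read from the count. *Cyth4*, an exchange factor for ARF GTPases found mainly in blood cells, rose by a log2 value of 2.28 ± 0.33 (SE; adjusted p = 0.0040), from 180, 132 and 234 to 575, 1322 and 850. *Skap2*, a cytosolic adaptor of leukocyte adhesion, rose by 1.52 ± 0.24 (adjusted p = 0.0046), and *Lcp1*, the leukocyte actin bundler plastin, by 1.11 ± 0.10 (adjusted p = 0.0013). *Slc7a7*, a cationic amino acid transporter, fell by 0.63 on the log2 scale (adjusted p = 0.012). The SNT order 2, 3, 1 was shared by 8 of these 12 genes. It was found in 29.1% of all genes tested and in 60.6% of those called higher in SNT, so it was not particular to this list. *Lcp1* had SNT 3 above SNT 2, at 11052, 12588 and 12922 in SNT 1, 2 and 3.

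Lysosomal genes went both ways. Over the 4 lysosomal lists, 9 of 28 genes besides *Ctsh* rose, 7 fell and 12 were not called, and their median log2 difference was 0.12. Over all genes tested 29.2% were called higher and 29.4% lower. The counts lie near these shares, so nothing about lysosomal genes is read from them. Among proteases, *Ctsc* rose by 1.63 ± 0.29 (SE; adjusted p = 0.0061) and *Scpep1*, a serine carboxypeptidase, by 1.12 ± 0.22 (adjusted p = 0.0073). *Ctsb* was at 41778, 42969 and 39727 in naive and 41528, 54009 and 40421 in SNT libraries, so only SNT 2 lay above the naive range and the gene was not called (log2 difference 0.12 ± 0.16, adjusted p = 0.59; -0.017 without SNT 2). *Lgmn*, an asparagine endopeptidase, had a log2 difference of 0.41 ± 0.19 and missed the call (adjusted p = 0.11), although it passed under 7 of the 19 alternatives: edgeR, DESeq2, equal totals, the replicate block, the 25M and 17M runs and without SNT 1 (adjusted p = 0.030 to 0.095).

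Among the 7 other lysosomal enzymes and activators, 3 rose and 1 fell, with a median log2 difference of 0.09. *Npc2*, which carries cholesterol out of the lysosome, rose by 1.16 ± 0.26 (SE; adjusted p = 0.012), *Glb1*, the acid beta-galactosidase, by 0.86 ± 0.22 (adjusted p = 0.018), and *Aga*, which cleaves glycoprotein linkages, by 0.57 ± 0.12 (adjusted p = 0.0081). *Hyal3*, a hyaluronidase family member, fell by 0.50 on the log2 scale (adjusted p = 0.012).

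Of 12 lysosomal membrane proteins 3 rose and 5 fell, and their median log2 difference was -0.013. The calcium-conducting channels *Tpcn1* and *Tpcn2* rose by 0.61 ± 0.15 (SE; adjusted p = 0.015) and 0.55 ± 0.08 (adjusted p = 0.0041), and *Scarb2*, the receptor that delivers glucocerebrosidase, by 0.36 ± 0.08 (adjusted p = 0.011). *Abcb9*, a lysosomal peptide transporter, fell by 1.36 (adjusted p = 0.0060) and *Atp13a2*, a polyamine exporter, fell by 0.83 on the log2 scale (adjusted p = 0.0065). In the proton pump, *Atp6v0c* rose by 0.22 ± 0.07 (adjusted p = 0.040) and *Atp6v1c1* fell by 0.82 (adjusted p = 0.0034), while the other 3 of 5 subunits were not called; *Atp6v0c* lost the call when naive 1, naive 3 or SNT 3 was left out (adjusted p = 0.13, 0.14 and 0.11).

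Among the genes of the Arp2/3 list, which holds only part of the complex, *Arpc1b* had the largest difference. It had been picked with that difference known, so its standing out is not read as a result. *Arpc1a*, in naive libraries at 2357, 2279 and 2447 and in SNT at 2378, 2576 and 2587, had a log2 difference of 0.09 ± 0.07 (SE; adjusted p = 0.33), which became 0.25 with libraries scaled to equal totals and then passed (adjusted p = 0.033). *Arpc3* and *Actr2* were at -0.030 and -0.13 and were not called, and both were above 0 with equal totals, at 0.13 and 0.035, as was *Arpc3* without SNT 1, at 0.041. *Actr3* fell by 0.18 on the log2 scale (adjusted p = 0.077), a call lost with edgeR (adjusted p = 0.12), with equal totals (adjusted p = 0.86), and without naive 1, naive 2, naive 3 or SNT 3, each time to an adjusted p of 0.17 to 0.25. Of 8 activators and partners of the complex, 3 rose and 4 fell. *Baiap2*, which curves the membrane at protrusions, rose by 1.06 ± 0.23 (adjusted p = 0.010), *Cyfip1* of the WAVE complex by 0.53 ± 0.12 (adjusted p = 0.011) and the GTPase *Rac1* by 0.36 ± 0.07 (adjusted p = 0.0075). The WAVE complex members *Nckap1* and *Brk1* fell by 0.59 (adjusted p = 0.013) and fell by 0.33 (adjusted p = 0.012), the call of *Brk1* being lost with equal totals (adjusted p = 0.13).

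Around *Tbxas1*, the other prostanoid and lipid mediator genes were few and mixed, with 1 of 5 higher and 2 lower. *Lpcat2*, a lysophospholipid acyltransferase that makes platelet-activating factor, rose by 0.36 ± 0.11 (SE; adjusted p = 0.028). *Mgll*, which breaks down monoacylglycerol, fell by 0.71 (adjusted p = 0.0070) and the phospholipase *Pla2g6* fell by 0.53 on the log2 scale (adjusted p = 0.010).

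Of 8 relatives and signalling partners of *Ptprc*, 4 rose and 2 fell, and 3 were called in all when naive 1 or SNT 3 was left out. *Jak2*, a cytokine receptor kinase, rose by 1.34 ± 0.12 (SE; adjusted p = 0.0015), alongside *Skap2*. *Inpp5d*, a phosphatase of blood cells that limits phosphoinositide signalling, rose by 0.65 ± 0.24 (adjusted p = 0.064), a call lost without naive 1, naive 2, naive 3 or SNT 3 (adjusted p = 0.10 to 0.18). The receptor phosphatases *Ptprz1* and *Ptprm* fell by 0.25 (adjusted p = 0.055) and fell by 0.24 (adjusted p = 0.047), and neither was called with equal totals (adjusted p = 0.41 and 0.44). *Ptprz1* also lost the call without naive 1, naive 2, SNT 2 or SNT 3 (adjusted p = 0.12 to 0.17), and *Ptprm* without naive 1, naive 3, SNT 2 or SNT 3 (adjusted p = 0.10 to 0.16).

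Inflammatory receptors and signalling genes rose in 11 of 12 cases, with none lower and a median log2 difference of 0.85. Over all genes tested 29.2% were called higher. *P2rx7*, the ATP-gated channel of macrophages and glia, rose by 1.99 ± 0.21 (SE; adjusted p = 0.0022), from 212, 196 and 251 to 623, 1075 and 975. *Il1r1*, the signalling interleukin receptor, rose by 1.91 ± 0.11 (adjusted p = 2.7e-04) and its partner *Il1rap* by 1.43 ± 0.22 (adjusted p = 0.0043). All 8 engulfment genes were called, 7 higher and 1 lower, where 58.5% of all genes tested were called. The inflammatory and engulfment lists were chosen with earlier results known, so no excess is read from either count. *Lgals3*, a galectin of activated macrophages, rose by 1.24 ± 0.19 (adjusted p = 0.0044), the scramblase *Ano6* by 0.90 ± 0.09 (adjusted p = 0.0018) and *Sirpa*, a myeloid receptor for the signal that blocks engulfment, by 0.86 ± 0.18 (adjusted p = 0.0094). *Anxa5*, which binds phosphatidylserine, fell by 1.14 on the log2 scale (adjusted p = 0.0030).

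**Figure D4:**
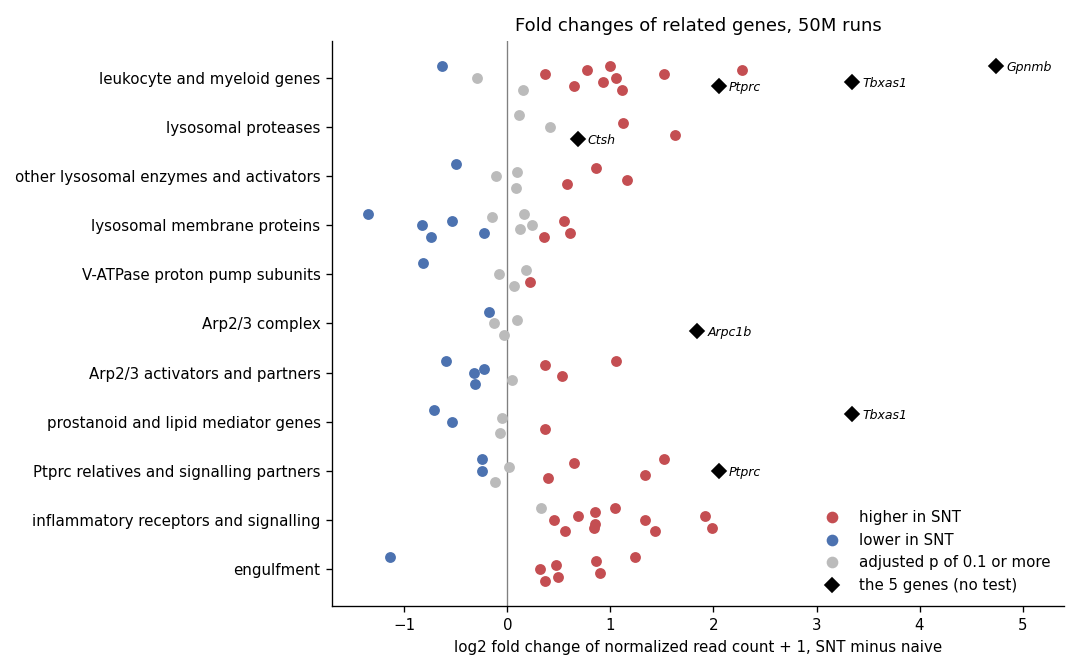
Log2 fold change (SNT minus naive, 50M runs) of each gene, 1 row per list; red and blue points are genes called higher and lower by limma, grey points were not called, and black diamonds are the 5 genes, which were not tested. Genes of the leukocyte, inflammatory and engulfment lists lie mostly right of 0, those of the lysosomal membrane and Arp2/3 lists on both sides.

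Genes whose rise over the naive mean was most like that of each of the 5 were sought among the 1990 genes with a symbol and a mean count of at least 20. The distance was the root mean square difference of log2(count + 1) minus the naive mean, over the 9 SNT runs of 3 libraries. It mostly reflects the size of the rise rather than its shape across libraries. Between *Gpnmb* and *Ctsh*, for example, it was 4.11 with a mean offset of 4.07. The nearest to *Tbxas1* was *Postn*, the matrix protein periostin, at a distance of 0.13, followed by *Col18a1*, a basement membrane collagen, at 0.23 and *Thbs2*, a matricellular thrombospondin, at 0.62. *Postn* was counted at 208, 134 and 270 in naive libraries and 1286, 3436 and 2176 in SNT libraries, a ratio of 11.3. For *Gpnmb* the nearest gene with a symbol was *Thbs2* at 0.91, with a ratio of 17.3, followed by *Tbxas1* and *Postn*, both at 1.39. Closer to *Gpnmb* than *Thbs2* were 15 genes with no symbol in the sheet.

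The nearest to *Ptprc* were *Sh3bp2*, a signalling adaptor of immune cells, at 0.19, *Cyth4* at 0.23 and *Nid2*, a basement membrane nidogen, at 0.25. *Nid2* was also the nearest to *Arpc1b*, at 0.11, followed by *Mmp2*, a matrix metalloproteinase, at 0.15 and *Ahr*, a ligand-activated transcription factor, at 0.16. *Ctsh* lay among many genes of small rise, with the chromatin protein gene *Cbx1* at 0.06, the kinase gene *Bmp2k* at 0.07 and *Elavl1*, which encodes an RNA-binding protein, at 0.08. Among the 5, *Ptprc* and *Arpc1b* were the closest pair, at 0.30, and *Gpnmb* and *Ctsh* the most distant, at 4.11. Up to 55 genes with no symbol in the sheet were closer than some of the genes named, and they are not named here.

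Markers of other cells of the ganglion also differed between the groups, but not all in the direction of the 5 genes. Over all genes tested 29.2% were called higher and 29.4% lower in SNT. The markers came from the same sheet of genes with a symbol, so no excess is read from their counts. Of 15 sensory neuron markers 11 fell and none rose, and their summed count was 472498 to 543117 in naive and 342239, 190456 and 235233 in SNT 1, 2 and 3, the reverse of the order of the 5 genes. Of 8 fibroblast and perineurial markers 7 rose and 1 fell, and their sum was 57564 to 82808 in naive and 116200, 174619 and 173347 in SNT 1, 2 and 3. Of 8 Schwann and satellite glial markers 4 rose, 1 fell and 3 were not called, with sums of 167818 to 271758 in naive and 188409 to 224003 in SNT libraries. No marker was at 0 in any library. The naive order 3, 1, 2, seen in *Ptprc*, *Tbxas1*, *Arpc1b* and *Ctsh*, was shared by 7 of the 8 glial markers and 7 of the 8 fibroblast markers. It was found in 20.5% of all genes tested and in 37.0% of those called higher in SNT. The part of these markers in the differences was not tested.

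**Figure D5:**
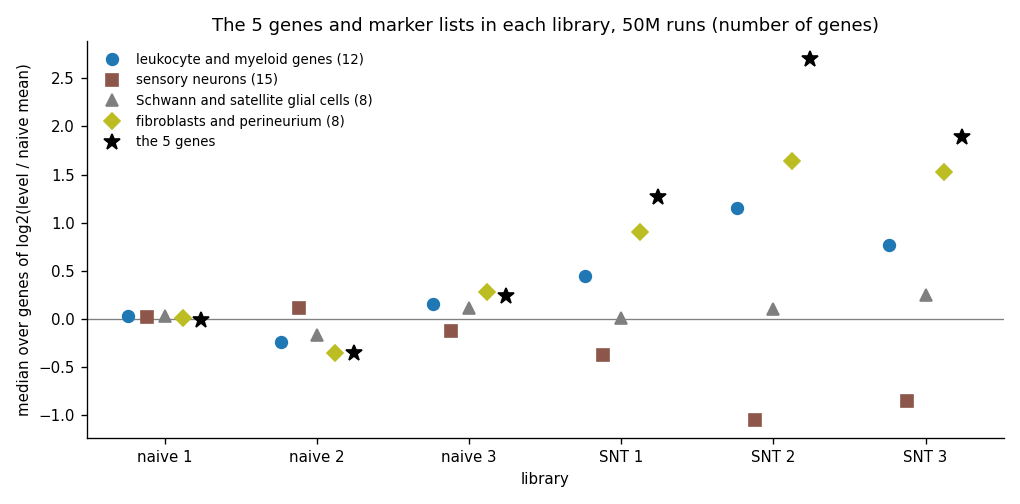
Median over genes of the log2 level relative to the naive mean in each library, for the 5 genes (stars), the 12 other leukocyte and myeloid genes, and the markers of neurons, glia and fibroblasts (50M runs). The 5 genes stand at 1.27, 2.70 and 1.89 in SNT 1, 2 and 3, and the neuron markers at -0.38, -1.05 and -0.85.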

How the data were processed

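Per the labels and the study's methods, poly(A) RNA of 6 libraries (3 SNT, 3 naive, 4 rats each) was sequenced in 34-base reads at 3 depths. The authors aligned reads with Bowtie to rat Rn5 with up to 1 mismatch, discarded ambiguous reads, counted exonic reads per Ensembl gene (release 74) and deposited a signal, the count divided by a DESeq size factor, separately at each depth. Tool versions are not given in the sources used here. Strand was not used in counting. Every deposited value was a whole multiple of the value of 1 read, so reads were recovered for all genes (100% of values within 1e-06 of a whole number). Reads in genes were 15000789 to 19031166 per library at 50M, 8319112 to 9951906 at 25M and 4968448 to 6154543 at 17M. Runs of 1 library differed by little more than sampling noise (chi-square per degree of freedom 0.996 to 1.17) and were counted as 1 sample; libraries of 1 group differed by 2.46 to 73.1.

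The test was limma 3.58.1 with a variance trend (R 4.3.3) on log2(value + 1) for genes with reads in at least 3 of 6 libraries at 50M, with Benjamini-Hochberg adjustment over 17930 genes and a threshold of 0.1. It was also run on simulated data in which few genes changed, as many up as down. Most genes were called in these data, so that run does not cover their setting and nothing is read from it. The deposited normalization was kept. edgeR 4.0.16 and DESeq2 1.42.0 on recovered reads, other filters, pseudocounts (0.5 and 5), scalings and depths, a replicate block, and each library left out were alternatives. Symbols were those of 1994 genes in the study's sheet of genes examined for intronic reads, which was shortened, so lists hold only part of each pathway; 1 glial marker is not reported here and was left out of its list. The 5 genes and the lists were chosen with earlier results of these data known. Named besides the 5 were the 3 largest rises and 2 largest falls called in each list, *Arpc1a*, *Arpc3*, *Actr2*, *Actr3*, *Ctsb*, *Ctsc* and *Lgmn*, and the 3 genes most like each of the 5. Errors from counting cover counting only.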

Additional observations from a re-analysis of the deposited data

How the results depend on the processing

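Of 10497 genes called at 50M, all alternatives left a count within 1.5 times, from 8416 to 11346 when 1 library was left out. The log2 differences of the 5 genes ranged over the alternatives as follows: *Gpnmb* 4.17 to 5.11, *Tbxas1* 2.95 to 3.74, *Ptprc* 1.67 to 2.41, *Arpc1b* 1.59 to 2.12 and *Ctsh* 0.54 to 0.85. The filters, the threshold, the variance trend and the replicate block do not alter a log2 difference, so these settings could not move it. The genes were chosen for this contrast, so their kept sign is not read as support. Of the 52 other named genes, 41 kept direction and side of the threshold under all 19 alternatives, 6 lost a call and 2 gained one under at least 1, and 3 changed sign, none of them called: *Arpc3* was 0.13 with equal totals and -0.098 to 0.041 with a library left out, *Actr2* was 0.035 with equal totals, and *Ctsb* was -0.017 to 0.19 with a library left out, below 0 only without SNT 2. Calls in the proton pump list numbered 1 with the replicate block and 1 to 3 with a library left out, against 2. Calls in the Arp2/3 list besides *Arpc1b* numbered 0, against 1, without the variance trend, at an adjusted p under 0.05, with the replicate block and with edgeR, and 0 to 1 with a library left out. Partners of *Ptprc* numbered 3 to 7 with a library left out, against 6.

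Deviations of same-numbered libraries from their group means had r = 0.05, -0.35 and 0.18 across 14089 genes for numbers 1, 2 and 3. Deviations within a group balance out, so the 3 values are not independent. They cannot show whether same-numbered libraries were processed together. The labels give a number only and state no pairing, so the main test was unpaired. With the replicate block 9459 genes were called, and 2 named genes, *Atp6v0c* and *Actr3*, lost the call. The groups hold 3 pools each, and *Tbxas1* rested on 26 to 46 reads in naive libraries.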
